A study of Mus musculus with 13 samples.

Results

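Atf4, Ddit3, Trib3, Chac1, Sesn2, Gdf15, Atf3, Atf5, Cebpb and Cebpg are 10 of the 16382 genes in the tables, and they were chosen by name as the stress transcription factor ATF4, its bZIP partners, several of its classical targets and the secreted cytokine GDF15. The choice was made with earlier results of these data known. The study measured poly-A RNA in C2C12 myotubes, muscle fibres formed in culture from a mouse myoblast line that the labels give as wild type. Myotubes on day 8 of differentiation in low serum medium received medium with vehicle (DMSO, called CON) or with palmitoylethanolamide at 10 µM (called PEA), a fatty acid amide made by many cells, and were lysed after 24 h. Each treatment had 6 libraries, taken from duplicate wells in 3 repeats of the experiment. The labels do not say which libraries share a repeat, so p-values take each library as separate and may be too small. C2C12 is 1 cell line without the nerve, vessel and immune cells of muscle, and all libraries share that background.

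In the integrated stress response, kinases that sense amino acid shortage, misfolded protein, haem shortage or double-stranded RNA phosphorylate the translation factor eIF2. General protein synthesis then falls, while the Atf4 mRNA, which carries short upstream reading frames, is translated more. ATF4 protein binds DNA as a dimer with C/EBP family partners and turns on genes for amino acid supply, redox balance and feedback control, and GDF15 is a secreted product of the same response in muscle. Since ATF4 is set largely by translation and protein stability, a level of Atf4 mRNA is not a level of ATF4 activity.

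The composite site read by C/EBP and ATF proteins, TGATGNAA, was looked for on both strands of the 12 RefSeq promoters of the 10 genes (250 bases before to 50 after each start, table build GRCm38.p6). It was present for 3 genes, Atf3, Chac1 and Trib3, and in 3.97% of all 32851 promoters of the table. With C at the open position (TGATGCAA, a subset of the same motif) it was present for Atf3 and Chac1 and in 0.895% of all promoters. The Trib3 match lay after the start. The windows are shown because they place a canonical ATF4 type sequence close to a RefSeq start of 2 of the genes. They lie at chr1:190915613-190915660 on the minus strand (Atf3) and at chr2:119181510-119181557 on the plus strand (Chac1) of GRCm39, where each promoter matched the genome exactly once. Both are written along the gene's own strand, and the capitals mark the motif, which reads TGATGCAA on the other strand.
Atf3: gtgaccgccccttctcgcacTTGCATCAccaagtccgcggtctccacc
Chac1: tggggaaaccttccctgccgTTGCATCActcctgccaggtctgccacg
The motif ended 102 bases before the RefSeq start used for Atf3 and 185 bases before that used for Chac1. Both starts lie inside the annotated gene spans given below, and not at their outer ends. The Atf3 promoter also held TGACGTAA, a variant of the cAMP element bound by ATF and CREB proteins, which was found in no other promoter of the 10 genes and in 0.499% of all promoters. It is at chr1:190915531-190915560 on the minus strand, 2 bases before the same RefSeq start, and is capitalised in the same way.
Atf3: cctggaagctattaatagcaTTACGTCAgc
The full cAMP element TGACGTCA and the ER stress element (CCAAT followed 9 bases on by CCACG) were in 0 of these promoters, against 1.79% and 0.119% of all promoters. A match is a description of letters and not a measured binding site.

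All 10 genes passed the filter on low counts. Because they were chosen with earlier results of these data known, the counts and shares below are a description. Of the 10, 7 were higher in PEA at an adjusted p below 0.05 (edgeR quasi-likelihood test, Benjamini-Hochberg over 13142 genes), and 0 were lower, also at an unadjusted p below 0.05 and by DESeq2 and limma-voom. Among all genes tested, 6.31% were called higher, 4.74% lower and 11.0% in either direction. With Atf4 added, 8 of the 10 were called by DESeq2, limma-voom, limma with a pseudocount of 5, thinned counts and a replicate block, which called 14.5%, 12.4%, 11.7%, 10.2% and 11.9% of all genes in either direction. Replicate numbers did not pair the libraries (last section), so that block is an arbitrary grouping. Without PEA 5 edgeR called 4 of the 10, against 6.01% of all genes, and at an adjusted p below 0.01 it called 3, against 3.08%; without CON 2 it called 8, against 16.7%. The called genes were Trib3, Atf3, Chac1, Sesn2, Gdf15, Ddit3 and Cebpg, whereas Atf4, Cebpb and Atf5 did not pass. All 10 had a fitted log2 fold change above 0, as did 51.3% of all genes, and the median over the 10 was 0.40 against 0.01 over all genes. Summed markers of dividing cells were also higher in PEA (lowest 6509, median 7260 and highest 7676 normalized counts, against 2508, 3816 and 6389 in CON). The part of these markers in the results below was not tested.

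**Figure D1:**
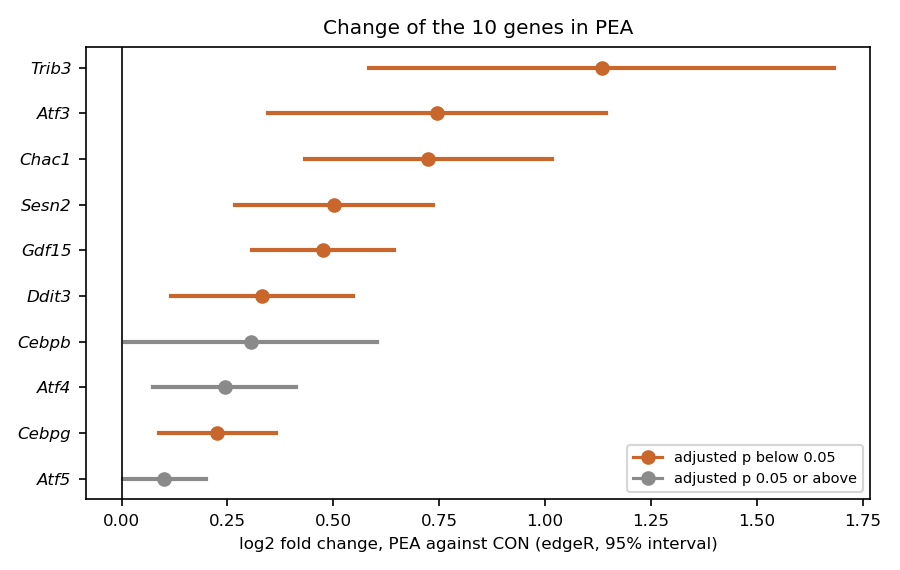
Fitted log2 fold change of each gene in PEA against CON (x axis, points) with its 95% interval (lines), 6 libraries a group. Orange marks the 7 genes with an adjusted p below 0.05, from Cebpg at 0.23 to Trib3 at 1.13, and grey marks Cebpb, Atf4 and Atf5.

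Among the targets and feedback genes, Trib3 differed most. Trib3 (chr2:152179337-152191958, minus strand; this and the positions below are GRCm39) encodes a pseudokinase that binds ATF4 and dampens its activity, and is itself an ATF4 and CHOP target. Normalized counts of Trib3 in CON ran from 240.7 through a median of 365.6 to 967.0, and in PEA from 744.7 through 1093 to 1140. The groups overlapped through 1 vehicle library, CON 2, which lay above PEA 1 and PEA 3, while the other 5 CON libraries lay below every PEA library. Trib3 was 2.19-fold higher in PEA (95% interval 1.50 to 3.21, log2 fold change 1.13 with an SE of 0.26, adjusted p = 0.0125 in edgeR), and a two-sided exact permutation test gave p = 0.00649. Its coefficient of variation was 60.3% in CON and 19.1% in PEA, the widest spread of the 10 genes in CON.

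Chac1 (chr2:119180757-119184866, plus strand), an enzyme that degrades glutathione and a target shared by ATF4 and CHOP, had normalized counts of 327.0 (lowest), 435.7 (median) and 711.6 (highest) in CON. In PEA the same values were 654.3, 754.6 and 871.8. Again the overlap came from CON 2, which exceeded PEA 3 and PEA 4. Chac1 was 1.65-fold higher in PEA (95% interval 1.35 to 2.02, log2 fold change 0.72 with an SE of 0.14, adjusted p = 0.00452 in edgeR; exact permutation p = 0.00649).

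Sesn2 (chr4:132219335-132237815, minus strand) encodes a leucine sensor that restrains the growth kinase complex mTORC1. Its normalized counts were 910.2, 1221 and 1603 (lowest, median, highest) in CON and 1413, 1864 and 1943 in PEA. CON 2 stood above PEA 1 and PEA 3, and the remaining vehicle libraries stood below all of PEA. The gene was 1.42-fold higher in PEA (95% interval 1.20 to 1.66, log2 fold change 0.50 with an SE of 0.11, adjusted p = 0.00961 in edgeR; exact permutation p = 0.00649). The Sesn2 locus overlaps a long non-coding RNA on the same strand, Gm12981, which is counted separately in the tables.

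Gdf15 (chr8:71082038-71091537, minus strand), the cytokine that acts on the hindbrain receptor GFRAL to lower food intake, was the member with the smallest p-value. Normalized counts ran from 520.4 through a median of 694.2 to 777.0 in CON and from 858.9 through 947.5 to 998.0 in PEA. All 6 PEA libraries lay above all 6 CON libraries, and no other gene of the 10 was separated in this way; 2.53% of all genes had PEA above CON without overlap, and 4.34% had no overlap in either direction. The difference was 1.39-fold (95% interval 1.24 to 1.56, log2 fold change 0.48 with an SE of 0.08, adjusted p = 0.00185 in edgeR). The exact permutation p was 0.00216, the smallest that 6 against 6 libraries allow. Gdf15 ranked 103 by p-value among the 13142 genes, and Chac1 ranked 193.

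**Figure D2:**
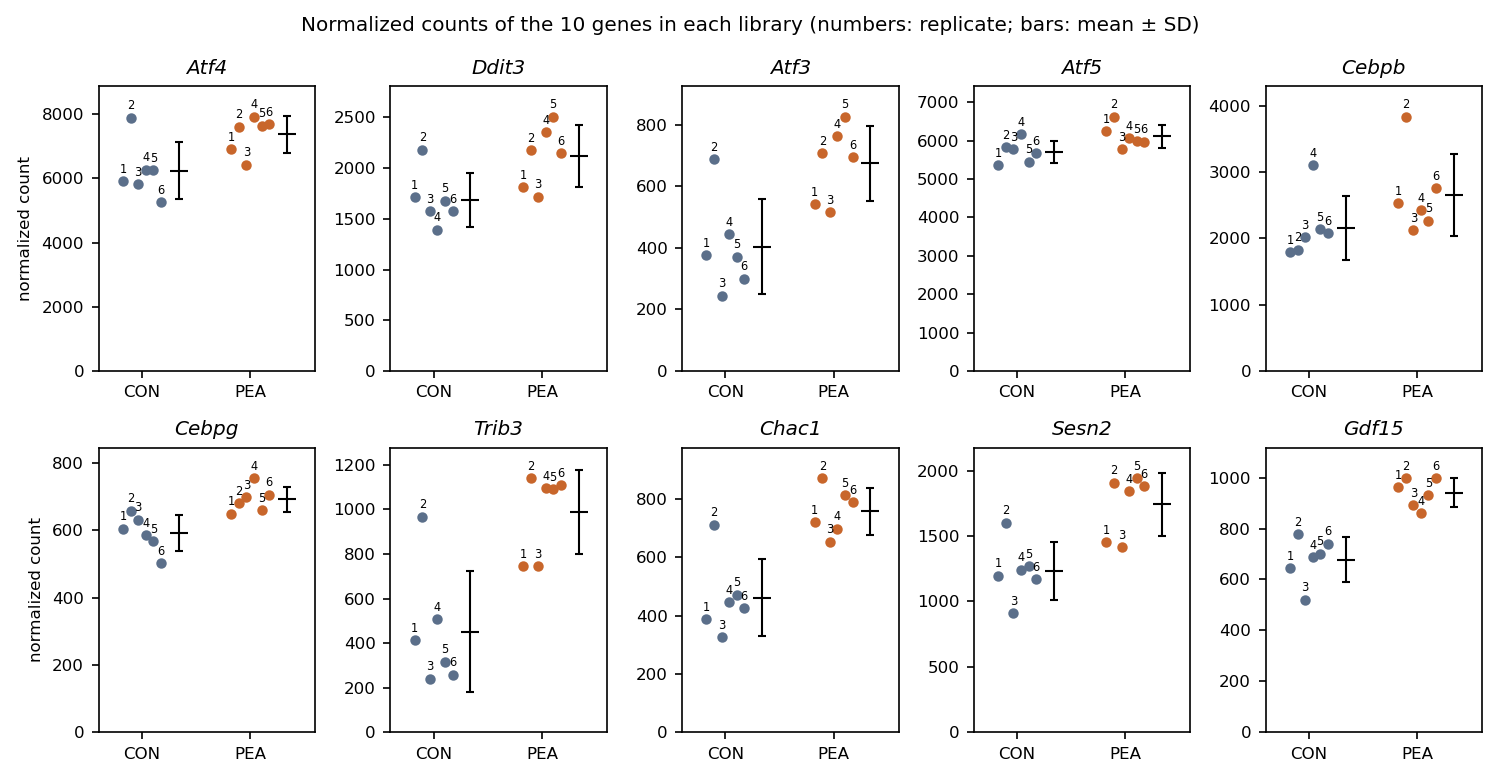
Normalized counts (y axis, linear from 0) of each gene in the 6 CON (blue) and 6 PEA (orange) libraries, numbered by replicate, with the mean and SD as bars. Gdf15 has no overlap between the groups. In Trib3, Chac1, Sesn2, Atf3, Ddit3, Cebpg and Atf4 the library CON 2 is the only vehicle library that reaches into the PEA range.

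Of the 6 transcription factors, Atf3, Ddit3 and Cebpg passed the threshold. Atf3 (chr1:190902493-190950241, minus strand) is a rapidly induced factor that both represses and activates stress genes. It had normalized counts of 244.8, 373.5 and 689.0 (lowest, median, highest) in CON and of 516.3, 700.8 and 826.8 in PEA. The vehicle library CON 2 exceeded PEA 1 and PEA 3, and the other vehicle libraries did not reach PEA. Atf3 was 1.68-fold higher (95% interval 1.27 to 2.21, log2 fold change 0.74 with an SE of 0.19, adjusted p = 0.0198 in edgeR; exact permutation p = 0.00866). Without PEA 5, its highest library, the adjusted p in edgeR was 0.0545.

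Ddit3 (chr10:127124268-127132163, plus strand) encodes CHOP, a factor linked to cell death under lasting stress. Its normalized counts were 1392, 1627 and 2182 in CON and 1719, 2161 and 2509 in PEA (lowest, median, highest). The groups overlapped more than those of the targets, since only 2 PEA libraries exceeded the highest vehicle library. That library was CON 2, the only vehicle library in the PEA range. Ddit3 was 1.26-fold higher (log2 fold change 0.33 with an SE of 0.10, adjusted p = 0.0454 in edgeR; exact permutation p = 0.0216). This call was near the threshold: when each of the 12 libraries was left out in turn it held 3 times, with adjusted p from 0.00421 without CON 2 to 0.113 without PEA 5. The Ddit3 locus overlaps Mars1 and Mbd6 on the opposite strand, and since strand use in counting is not stated, reads from the overlaps cannot be assigned with certainty. On the same strand it overlaps another protein-coding entry named Ddit3 and the long non-coding RNAs Gm20492 and Gm66222, none of which is in the count tables.

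Cebpg (chr7:34745847-34756011, minus strand), a C/EBP protein without an activation domain that pairs with ATF4, showed a small difference with little spread. Normalized counts were 503.3, 594.8 and 657.9 in CON and 649.2, 689.6 and 755.0 in PEA (lowest, median, highest). Only CON 2 and PEA 1 crossed. Cebpg was 1.17-fold higher (log2 fold change 0.23 with an SE of 0.07, adjusted p = 0.0359 in edgeR; exact permutation p = 0.00433). When each library was left out in turn this call held 3 times of 12, with an adjusted p of up to 0.0816 without PEA 4.

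Atf4 (chr15:80139372-80141745, plus strand) had normalized counts of 5255, 6083 and 7893 in CON and 6424, 7628 and 7924 in PEA (lowest, median, highest). CON 2 lay above every PEA library except PEA 4. The fitted difference was 1.18-fold (log2 fold change 0.24, 95% interval 0.07 to 0.41, SE 0.08) with an adjusted p of 0.0585 in edgeR, and the exact permutation p was 0.0346. DESeq2 gave an adjusted p of 0.0281 and limma-voom one of 0.0462, so the side of the threshold depended on the tool. Without CON 2 the edgeR log2 fold change was 0.32 with an adjusted p of 0.00218, and without CON 6 the adjusted p was 0.129.

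Atf5 (chr7:44461680-44466082, minus strand), a relative of ATF4 that is also controlled by translation and is known for the mitochondrial stress response, had the smallest difference of the 10 genes. Its normalized counts ran from 5362 to 6168 in CON and from 5778 to 6631 in PEA, with medians of 5723 and 6022. The log2 fold change was 0.10 (SE 0.05, adjusted p = 0.171 in edgeR), with a coefficient of variation of 5.08% in CON and 4.84% in PEA. The Atf5 locus overlaps Il4i1 on the opposite strand and Nup62.

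Cebpb (chr2:167530835-167532338, plus strand), which encodes a C/EBP factor active in inflammation and known to hold back myogenic differentiation, varied between libraries of the same treatment. Normalized counts were 1786, 2045 and 3100.5 in CON and 2117, 2476 and 3834 in PEA (lowest, median, highest). A single library stood above the rest in each group, CON 4 and PEA 2. The log2 fold change was 0.30 (95% interval 0.01 to 0.60, adjusted p = 0.172 in edgeR). Without CON 4 it was 0.44 with an adjusted p of 0.0302, and without PEA 2 it was 0.17 with an adjusted p of 0.406. The Cebpb locus overlaps Peds1 on the opposite strand, which is not in the count tables.

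Levels of different genes were compared as normalized counts per kilobase of the exon bases of each gene in GENCODE vM39. The order of near neighbours depended on the length used. Per kilobase of the longest annotated transcript, Gdf15 was at 354, Ddit3 at 317 and Sesn2 at 274 in CON. In PEA, Gdf15 was at 491 and Sesn2 at 387, and Trib3 was at 378, Atf3 at 318 and Chac1 at 314. The values below use the exon bases. In CON, Atf5 (2654 ± 135, SD, n = 6) and Atf4 (2626 ± 376) were the most abundant by this scale, and they did not differ beyond their spread. Cebpb followed at 1434 ± 321. Ddit3 (302 ± 47.9), Gdf15 (300 ± 39.7) and Sesn2 (272 ± 49.1) were neighbours within their SDs, as were Chac1 (178 ± 51.1), Atf3 (166 ± 63.7) and Trib3 (133 ± 80.2). Cebpg was lowest at 105 ± 9.58, within the spread of Trib3. In PEA the level of Gdf15 was 415 ± 25.2 per kilobase, that of Sesn2 was 383 ± 52.9 and that of Ddit3 was 380 ± 54.6. Trib3 rose from 133 to 291 ± 55.6 per kilobase, beside Chac1 at 292 ± 31.2 and Atf3 at 276 ± 50.1. Trib3, Atf3 and Chac1, the 3 genes with the largest fold changes, had with Cebpg the 4 lowest levels in CON.

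The libraries of a treatment did not share 1 level of the programme. As the mean over the 10 genes of log2 CPM centred on all 12 libraries, PEA libraries lay between 0.03 (PEA 3) and 0.41 (PEA 2). Vehicle libraries lay between -0.52 (CON 3) and -0.15 (CON 4), apart from CON 2 at 0.16, which fell inside the PEA range. CON 2 was the highest vehicle library for 8 of the 10 genes, with CON 4 highest for Atf5 and Cebpb. PEA 3 was the lowest PEA library for 7 genes and PEA 2 the highest for 5. The dividing cell markers of CON 2 summed to 6389 normalized counts, the highest of the vehicle libraries and next to the lowest PEA library at 6509, and their part in its position was not tested. Without CON 2, 8 of the 10 genes had every PEA library above every vehicle library, against 5.52% of all genes, and without PEA 1 there were 2, against 3.27%. CON 2 was left out because it was seen to be high for these genes, so its 2 shares are not alike and nothing is read from them.

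**Figure D3:**
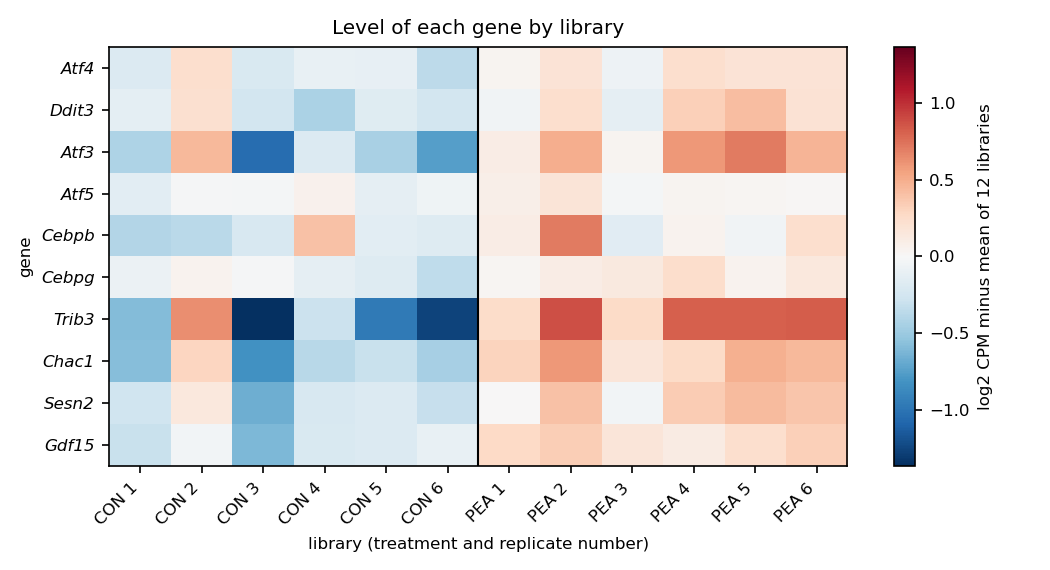
Log2 CPM of each gene (rows) in each library (columns, CON left and PEA right of the line) minus its mean over 12 libraries, from blue (lower) to red (higher). CON 2 is red in most genes and its mean of 0.16 lies in the PEA range, and CON 3 is the bluest library, with a mean of -0.52.

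Within treatments, the genes also varied together to differing degrees. Deviations of log2 CPM from the group mean were correlated over the 12 libraries for the 45 pairs, as a description, since all genes share the same libraries. Pearson's r was above 0 for 41 pairs, with a median of 0.40, while 49.98% of all pairs among genes with a mean log2 CPM of at least 3 were above 0. The closest pairs were Trib3 with Atf3 (r = 0.96) and Sesn2 with Atf3 (r = 0.93), and Atf4 followed Trib3 with r = 0.90. Atf4, Ddit3, Trib3, Chac1, Sesn2 and Atf3, picked out because their correlations were high, had 15 pairs with r between 0.64 and 0.96, and without CON 2 these ran from 0.30 to 0.92. Gdf15 followed Chac1 (r = 0.81, and 0.83 without CON 2) and Sesn2 (r = 0.70, and 0.59 without it) more closely than Atf4 (r = 0.34, and -0.01 without it). Cebpb and Atf5 had r = 0.81 (0.89 without CON 2), which fell to 0.28 without CON 4 and PEA 2, the libraries highest for Cebpb, and with Ddit3 the r of Cebpb was -0.26 (-0.13 without CON 2). The r of Cebpb with Chac1, Trib3 and Atf4 was 0.14, 0.12 and 0.09, and without CON 2 it was 0.60, 0.52 and 0.44. Cebpg and Gdf15 deviated in opposite directions (r = -0.35, and -0.75 without CON 2), although both were called higher in PEA.

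**Figure D4:**
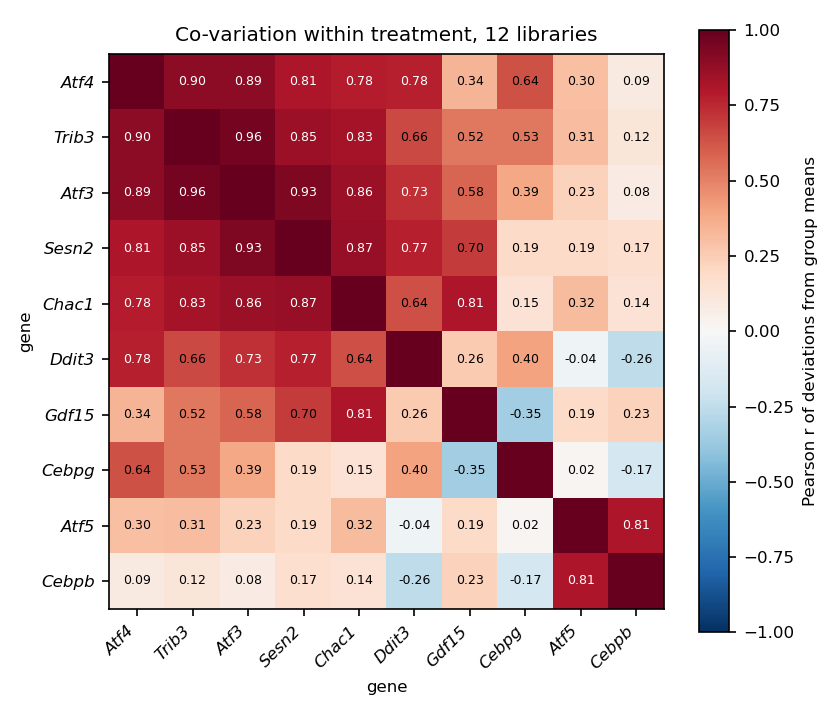
Pearson r between each pair of genes (both axes) over the 12 libraries, computed on deviations from the group means and coloured from -1 (blue) to 1 (red). Atf4, Trib3, Atf3, Sesn2, Chac1 and Ddit3 form the block with r from 0.64 to 0.96, chosen from these values, and Atf5 with Cebpb is at 0.81 (0.28 without CON 4 and PEA 2).

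By the same measure, the genes whose deviations were most like those of Gdf15 among 10139 genes were Ppp1r13l (r = 0.92), Lasp1, Mfge8, Birc5 and Srebf2 (r = 0.89). The median r over those genes was -0.03. Of the 5, Lasp1 (log2 fold change 0.18, adjusted p = 0.00863 in edgeR) and Birc5 (0.66, adjusted p = 0.0111), which is also a dividing cell marker, were called higher in PEA. Ppp1r13l, which encodes an inhibitor of p53, had a log2 fold change of 0.27 and an adjusted p of 0.0639 in edgeR.

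Around the 10 genes, 148 further genes of the stress pathways were tested, from lists also chosen with earlier results of these data known. In edgeR 48 of them (32.4%) were called higher and 0 lower, against 6.31% and 4.74% of all genes. Their median log2 fold change was 0.14, against 0.01 over all genes. At an unadjusted p below 0.05, 75 were higher and 6 lower, and DESeq2 called 52 higher and 1 lower and limma-voom 51 and 0. Without PEA 5 edgeR called 30 of these genes, against 6.01% of all genes, and without CON 2 it called 65, against 16.7%. At an adjusted p below 0.01 it called 15, against 3.08%. Of 18 genes of this step (the eIF2 kinases, phosphatase subunits, eIF2 and eIF2B subunits, Gcn1, Impact, Dele1 and Oma1), only Eif2ak2, the double-stranded RNA sensor PKR, was called (1317 ± 339 normalized counts in CON and 1812 ± 75.3 in PEA, with a log2 fold change of 0.47 and an adjusted p of 0.0285 in edgeR). This is 5.56% of the list, near the 6.31% of all genes called higher, and at an unadjusted p below 0.05 in edgeR 2 of the 18 were higher and 4 lower. The median of this list was -0.08, and Eif2b2 (-0.10) and Eif2b3 (-0.16) did not pass. The mRNAs of the other kinases, Eif2ak1 (HRI), Eif2ak3 (PERK) and Eif2ak4 (GCN2), had adjusted p of 0.198, 0.515 and 0.890 in edgeR; these 3 were named after their values were seen. Phosphorylation of eIF2 is not measured by RNA-seq.

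The amino acid supply genes were called higher in most cases (78.6%, 75% and 57.1% of the lists below, against 6.31% of all genes). Among 14 genes of amino acid and one-carbon synthesis 11 were higher, with a list median of 0.49. Aldh1l2, a mitochondrial folate enzyme, went from 441 ± 141 normalized counts under vehicle to 974 ± 186 under PEA, a log2 fold change of 1.15 (adjusted p = 8.5e-04 in edgeR). Aldh18a1, for proline synthesis, and Phgdh, for serine synthesis, rose by log2 fold changes of 0.68 and 0.50. Of 8 amino acid transporters tested 6 were higher, with a median of 0.37, among them Slc7a5 (0.71), which carries leucine, the glutamine carrier Slc1a5 (0.40) and Slc1a4 (0.19). Of 14 cytosolic aminoacyl-tRNA synthetases 8 were higher by smaller steps (median 0.18), including Lars1 (0.30), Cars1 (0.32) and Nars1 (0.21). The transporter Slc7a3 was below the filter.

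Among 15 other ATF4 and CHOP targets, 4 were higher (26.7%, against 6.31% of all genes called higher). They included the death receptor gene Tnfrsf10b (916 ± 68.4 normalized counts in CON, 1199 ± 93.7 in PEA, adjusted p = 0.00134 in edgeR and log2 fold change 0.39), the BH3-only gene Bbc3 (0.62) and Pck2 (0.55). Bbc3 and Tnfrsf10b are p53 targets too, and with Mdm2 (0.25) they had the smallest p-values of the p53 list, in which 5 of 18 (27.8%) were higher. In the ATF6 and XBP1 arms of the unfolded protein response 9 of 20 (45%) were higher, with the chaperone Hsp90b1 (0.33), the disulphide isomerase Pdia6 (0.29) and the secreted factor Manf (0.21) having the smallest p-values. Of 10 mitochondrial chaperones and proteases only the protease Lonp1 was higher (0.32, adjusted p = 0.00822 in edgeR), which is 10% of the list and near the share of all genes called, and the list median was -0.03; Yme1l1 (-0.14) and Trap1 (0.07) did not pass.

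Other bZIP factors are of the family of most of the transcription factors described here. Of 31 tested, 5 were called higher (16.1%, against 6.31% of all genes), among them Junb (0.41), Cebpa (0.43) and Creb3l2 (0.18). DESeq2 called 6 of them higher and 1 lower. Of 7 paralogs and related genes of the members 0 were called by edgeR, DESeq2 or limma-voom and 1 had an unadjusted p below 0.05 in edgeR, with a median log2 fold change of -0.16. With 11.0% of all genes called by edgeR, nothing is read from 0 of 7. Sesn3 (0.17, adjusted p = 0.134 in edgeR) and Sesn1 (-0.17, adjusted p = 0.234) did not pass although Sesn2 did, and neither did Chac2 (-0.19, adjusted p = 0.312) although Chac1 did; the differences between paralogs were not tested. Gfral, which encodes the GDF15 receptor, had at most 9.15 normalized counts in any library and was below the filter.

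**Figure D5:**
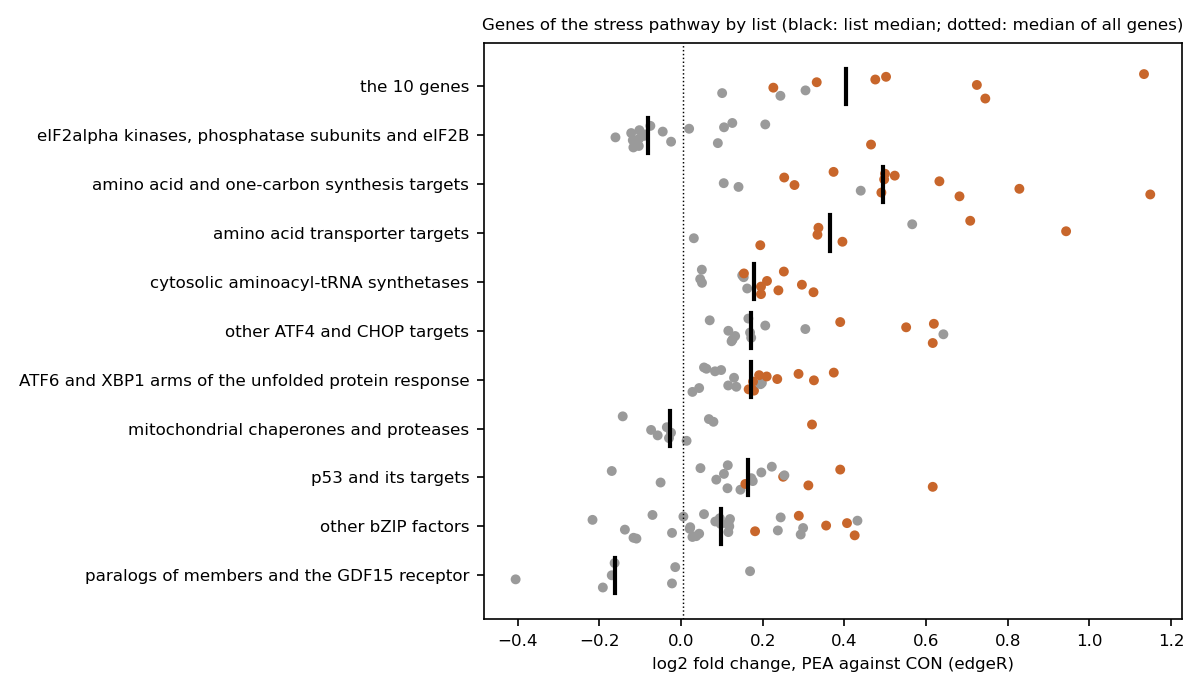
Log2 fold change in PEA against CON (x axis) of each tested gene (points, orange where the adjusted p was below 0.05) in the 10 genes and in each list of related genes. Black ticks give list medians, from -0.16 for paralogs to 0.49 for amino acid and one-carbon synthesis, and the dotted line is the median of all genes, 0.01.

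The labelled cell type was checked against its markers. The 12 myotube markers summed to 117906 to 181556 normalized counts in CON and 125849 to 142284 in PEA, all 12 had log2 fold changes below 0, and 2 were called lower. All 6 dividing cell markers were called higher, from Ccnb1 (0.57) to Mki67 (1.03). Markers of undifferentiated myoblasts summed to 12772 to 13883 in CON and 11382 to 12614 in PEA, without overlap, as for 4.34% of single genes. The sum was mostly Sdc4 (mean 7085 in CON, 6711 in PEA) and Cdh15 (5733 and 4814), the 1 of 4 called lower. Pax7 (114 and 111) and Myf5 (477 and 508) had adjusted p of 0.947 and 0.580 in edgeR. The part of this difference in the results was not tested. Fibroblast markers summed to 3718 to 7925 in CON and 6790 to 8074 in PEA, with Dcn called higher (0.48, adjusted p = 0.0439 in edgeR) and Thy1 below the filter. Macrophage markers stayed between 64.6 and 139.5 normalized counts, with the defining gene Ptprc at 5.06 or less, adipocyte markers reached at most 46.3, and each of 3 endothelial markers was below 10 in every library. More cells with the stress programme and more mRNA per cell cannot be told apart in these bulk libraries.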

How the data were processed

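RNA from C2C12 myotubes (6 CON and 6 PEA libraries) was made into poly-A libraries (NEBNext Ultra II) and sequenced by the authors. Per the labels and the study's methods, reads were aligned to mm39 with STAR 4.4.1d and quantified in Partek Flow against Ensembl annotation v100; the filter behind the 16382 genes listed is not given in the sources used here. The authors deposited estimated counts per gene (69.7% of those above 0 are not whole, since the E/M method splits shared reads) and a normalized signal, in which every library's counts are scaled by a median-ratio factor. The labels list 13 entries; PEA 2 and its top up share 1 set of counts and entered as 1 library. Library totals ran from 12354845 to 50397444 (median 18420606), CON 1 being 2.25 times as deep as the next. Estimated counts of the 10 genes ran from 202 to 15426; the spread between libraries includes the counting error of these counts.

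Estimated counts were rounded to whole numbers and tested with edgeR 4.0.16 (R 4.3.3; TMM, filterByExpr, quasi-likelihood) over 13142 genes without covariates. P-values were adjusted over these genes (Benjamini-Hochberg) and called below 0.05. Single genes were also tested with a two-sided exact permutation test of mean log2(normalized count + 1) over 924 assignments. Levels are normalized counts, and log2 CPM came from edgeR with a prior count of 2. Alternatives were DESeq2 1.42.0, limma-voom 3.58.1, other normalizations, filters, pseudocounts and thresholds, thinned counts, a replicate block and each library left out. Scripted tests were checked on simulated data. The named genes were the 10 members, the 3 genes with the smallest p-value of each related list, and the 5 genes most correlated with Gdf15 among those with a mean log2 CPM of at least 3. Outside this rule, the other eIF2 kinases, some members of the eIF2 list, cell type markers, genes below the filter and genes overlapping a member were also named. The members and lists were chosen with earlier results of these data known.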

Additional observations from a re-analysis of the deposited data

Results flagged for a closer look

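In 3 of the 20 groups of 6 libraries (10 genes in each treatment), the gap from the highest library to its neighbour took up more of the group's range than Dixon's 95% limit for 6 values; chance alone gives about 1 in 20. For Trib3 this was CON 2 at 967 normalized counts, with a gap of 0.633 of the range. For Cebpb it was CON 4 at 3100.5 (0.733) and PEA 2 at 3834 (0.626). The median Trib3 level in the same group was 365.6, and the medians of Cebpb were 2045 in CON and 2476 in PEA.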

How the results depend on the processing

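Under all alternatives run, including each library left out, no gene of the 10 changed direction. Trib3, Chac1, Sesn2 and Gdf15 were called in every fit at the threshold of 0.05, with log2 fold changes over the fits with 1 library left out of 1.01 to 1.50, 0.64 to 0.89, 0.43 to 0.59 and 0.41 to 0.52. Of the 10 genes 7 were called by edgeR (11.0% of all genes). With Atf4 added, 8 were called by DESeq2 (14.5%), by limma-voom (12.4%), with a pseudocount of 5 (11.7%) and in thinned counts (10.2%). With an adjusted p below 0.01 the count was 3 (3.08% of all genes), and leaving out 1 library gave 4 (without PEA 5, 6.01% of all genes) to 8 (without CON 2, 16.7%). Of the related genes 48 were called, 15 with an adjusted p below 0.01, and 30 (without PEA 5) to 65 (without CON 2) with 1 library left out. The number of the 10 genes with all PEA libraries above all CON libraries was 1 (2.53% of all genes), and 8 without CON 2 (5.52%) or 2 without PEA 1 (3.27%), both chosen after seeing the data. With C in place of the open base, the composite motif was in 2 promoters' genes in place of 3. Per kilobase of the longest annotated transcript, some levels rose, such as Gdf15 in CON (354 in place of 300) and Trib3 in PEA (378 in place of 291). Replicate numbers did not pair the libraries: the deviations of same-numbered libraries correlated with r from -0.08 to 0.06, and 0 of 6 CON libraries correlated best with the PEA library of their number; with the number as a replicate block 8 of the 10 genes and 49 related genes were called. The cause of these differences was not tested.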
